A study of Equus caballus with 12 samples.

Results

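The samples described here are the fresh in vitro matured horse oocytes (FR), which were the non-vitrified control of a vitrification study. They are the 5 FR pools among 12 samples, chosen by their treatment label, and of the 11425 genes measured the text follows the 2569 that could be given a name. The study asked how the messenger RNA (mRNA) of matured equine oocytes differs after vitrification before maturation (VGV in the labels, 4 samples) or after it (VMAT, 3 samples), and neither vitrified group is compared here. Ovaries came from a slaughterhouse, and cumulus-oocyte complexes were matured for 28 h with follicle-stimulating and luteinizing hormone. Oocytes were then stripped of their cumulus cells, and only those with an extruded polar body were kept for 2 h more. Each pool held 23 oocytes on average over the study, so a value is a mean over several oocytes and says nothing of single cells. Nothing stated whether the pools came from separate mares or collection days, and the spread between pools may therefore be partly technical. With a single group no test was made, and all values are descriptions.

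A fully grown oocyte has stopped transcribing most of its genes. It resumes meiosis and then waits at metaphase of the second meiotic division, with chromosomes held on a spindle, until a sperm enters. Until the embryo starts its own transcription it lives on stored maternal mRNA, which is masked, translated or degraded in a timed order.

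The libraries read the 3′ end of each transcript, so the deposited normalized counts (reads per gene divided by one size factor per sample) are not divided by transcript length, and a higher value means more 3′ ends counted. Whole reads could be recovered from them. The pools FR1 to FR5 held 2833957, 2740837, 4331042, 4715119 and 3577836 reads on genes. Between 6049 (FR2) and 7637 (FR3) genes had at least 1 read, and the 10 highest genes took 10.4% to 12.4% of a pool's reads. FR2 therefore had the fewest reads and the fewest genes. A floor of 3 reads corresponded to a normalized count of 1.51 to 3.43, and it covers counting error only. The names came from tables of the study's own comparisons, and every named gene had reads in all 5 pools. Of the named genes 318 had a mean normalized count under 100. A gene that was at 0 in a pool thus has no name here.

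The named gene with the highest mean was PARP12 (ENSECAG00000022601), which encodes an enzyme that attaches ADP-ribose to proteins. Its normalized counts were 89513, 55219, 56844, 44386 and 51157 in FR1 to FR5, or 59424 ± 17494 (SD, n = 5). FR1 stood above the other pools, which overlapped closely. HPF1, the factor that directs ADP-ribosylation by other enzymes of this family to serine, was also among the 10 highest named genes, with 18079.5, 12652, 17234, 16541 and 17017. Here the only pool apart was FR2, on the low side. A gene without a name, ENSECAG00000008731, had a slightly higher mean than PARP12 (60697), and 7 of the 30 highest genes of the table were unnamed.

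Cell division was represented by AURKA, KIF20B and WAPL. AURKA, a kinase that builds the spindle poles, ranked next to PARP12 among named genes with 27587, 48388, 14904, 23288 and 28956, a 3.25-fold range between FR2 and FR3. KIF20B, a spindle and midzone kinesin, and WAPL, which releases cohesin from chromosomes, were lower and more uneven. KIF20B had 7239.8, 16256, 3671, 2859 and 4547, and WAPL had 10569, 14862, 3623, 4456 and 5902. For both genes FR2 was the highest pool and FR3 or FR4 the lowest.

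Protein turnover and calcium signalling were represented by some of the highest genes, which differed in how even they were. PSMA7, a subunit of the proteasome core, had 30708, 18231, 36316, 24206 and 25536. CAST, which encodes calpastatin, the inhibitor of calcium-dependent calpain proteases, had 28860.0, 25233, 19916, 26442 and 22729.9 and its highest pool was 1.45 times the lowest. UBQLN1, which carries ubiquitinated proteins to the proteasome, had 28271, 10636, 19073, 14242 and 9674. CALM2, one of the genes for the calcium sensor calmodulin, ranged from 11058 in FR2 to 49589.6 in FR1 and so was far less even than CAST. GLUL (glutamine synthetase) was even in 4 pools, at 15799.7 to 19401, with FR2 apart at 44660.5.

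Genes that handle RNA and translation made up another share of the top 30. EIF5B, which joins the ribosomal subunits at initiation, had 17118, 33308, 15800.3, 11264 and 10605. HNRNPA1 and SMU1 act in splicing, THOC2 and SARNP in mRNA export, and XPO1 exports proteins and RNA from the nucleus. SMU1 was the evenest of these 5, from 9019 to 15109, and XPO1 the least even, from 2981 in FR4 to 16211 in FR2. BTG4, which recruits the deadenylase that clears maternal mRNA, closed the list with 8872, 4849.9, 8750.2, 6450.1 and 4324.

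Chromatin genes in the top 30 were HMGB1, DEK, ING3, RTF1, SMARCA5, TOP1 and DPPA3. The oocyte factor DPPA3, which shields the maternal genome from loss of DNA methylation, had 6878, 9314, 7163, 7143 and 6463. The chromatin protein DEK had 14483, 18002, 6448, 7200.3 and 8718, with FR1 and FR2 above the rest. SMARCA5, an ATPase that spaces nucleosomes, was more even, from 6135 to 10581. The remaining genes were CDH3 (P-cadherin), SLC16A1 (a lactate and pyruvate carrier), PPP1CB (a catalytic subunit of protein phosphatase 1), AMD1 (polyamine synthesis), LIMCH1 (an activator of non-muscle myosin) and ARMC10. HNRNPA1, HMGB1 and CALM2 have close copies elsewhere in mammalian genomes, with which reads may be shared, so their values are less certain. Of the 30 genes 9 were steady by the rule given below, 0 were variable, and all 30 had at least 30 reads in every pool.

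**Figure D1:**
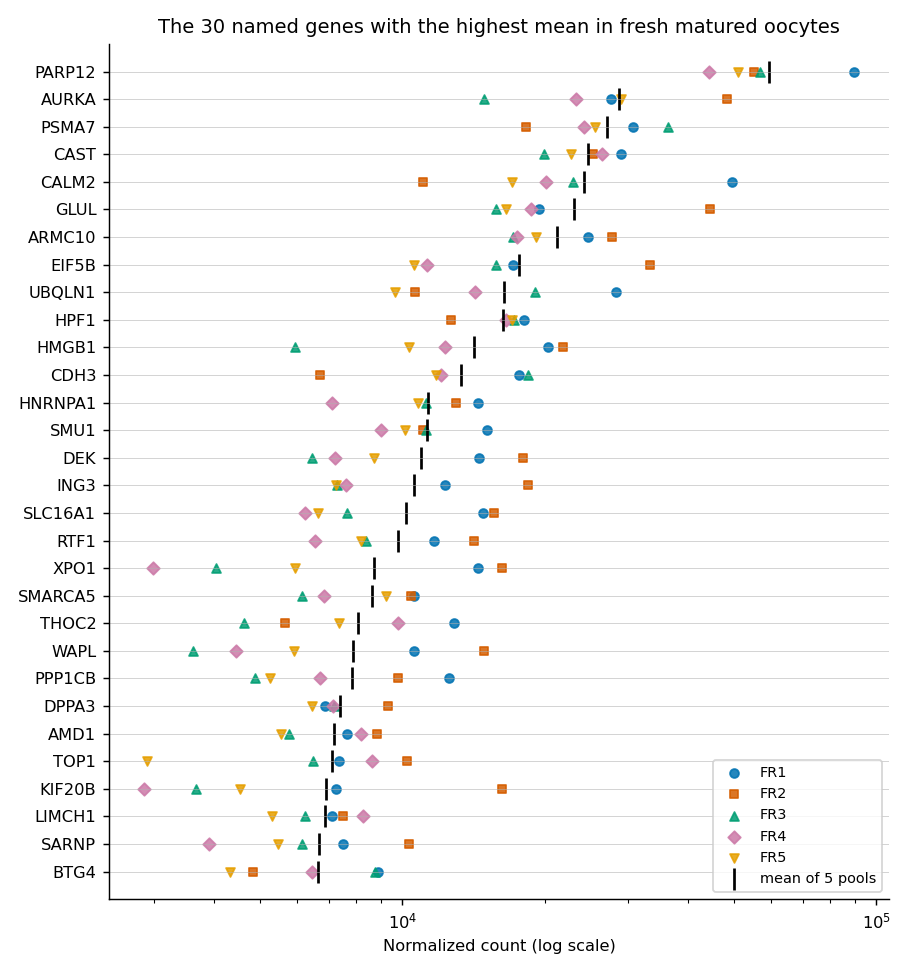
Normalized count (log scale) of the 30 named genes with the highest mean in FR, with 1 symbol per pool and a black bar for the mean of 5 pools. PARP12 lies apart at 59424, the other means run from 6649 to 28625, and the pools of one gene span 1.43-fold (HPF1) to 5.69-fold (KIF20B).

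The ranking carried over between pools. When the 30 highest named genes were taken from 4 pools, 22 to 23 of them were also among the 30 highest of the pool left out, and 27 to 30 were among its 100 highest. In the whole table, 47 genes were among the 100 highest of every pool and 179 among the 100 highest of any pool.

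Below these levels the reads of a gene fell into 2 classes. Of all gene and pool values 39.1% were 0 and 26.6% were 1 to 9 reads, only 3.57% were 10 to 29 reads, and 18.7% were at least 100 but under 1000 reads. On a log scale the low point between the 2 classes lay at 26 to 39 reads and the upper peak at 399 to 630 reads. Each pool showed the same shape. A threshold of 30 reads, set after this shape was seen, was therefore used to say whether a pool held a gene in the upper class.

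**Figure D2:**
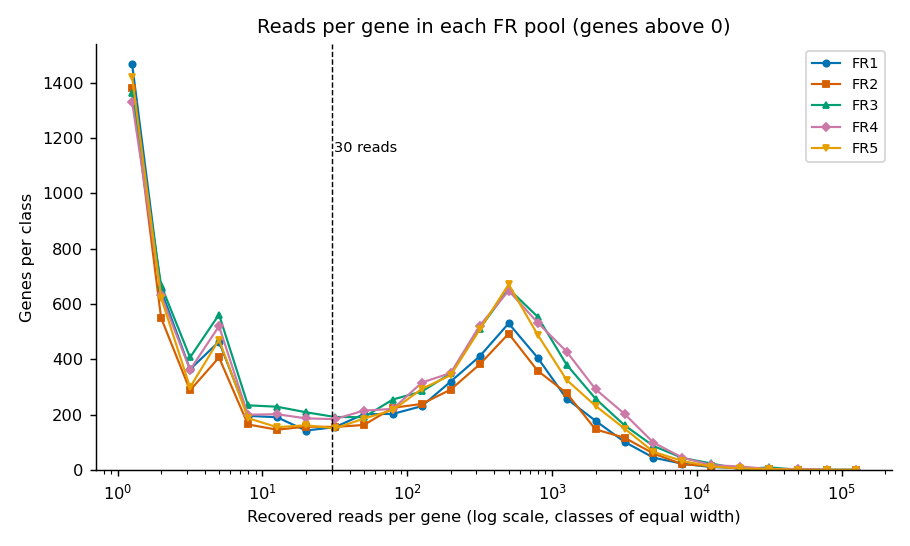
Number of genes against recovered reads per gene (log scale, classes of equal width), with 1 line per FR pool and genes at 0 left out. All 5 pools have many genes at 1 to 9 reads, a low stretch around the dashed line at 30 reads, and a second peak at about 399 to 630 reads.

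Many genes, 48.7%, were in the upper class in some pools and not in others. Of the 11425 genes, 1284 reached 30 reads in all 5 pools, 762 in 4, 973 in 3, 1324 in 2 and 2503 in 1, while 4579 did so in none. A gene that reached 30 reads in a single pool had a median normalized count of 151 there and 0.505 in its other pools. For genes that did so in 3 pools the medians were 229 and 3.03. In genes that reached 30 reads in all pools the median was 749.7.

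**Figure D3:**
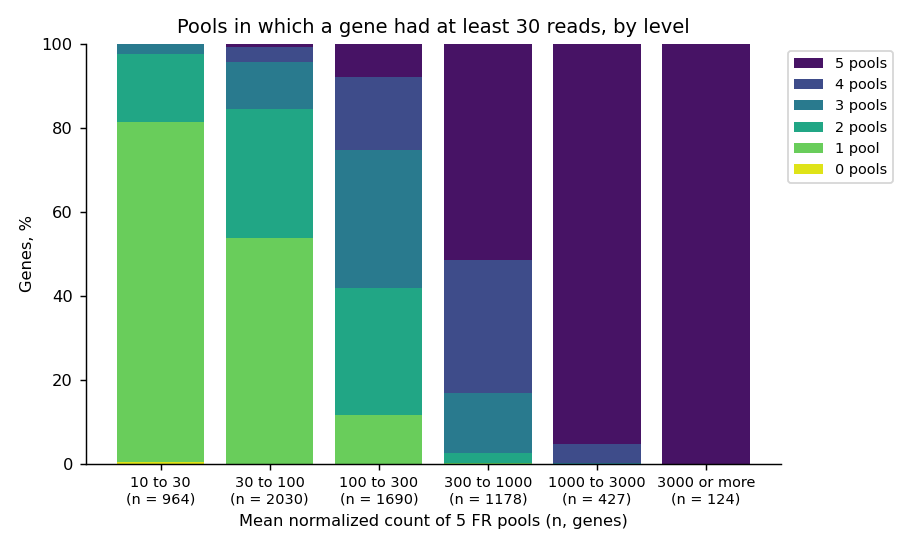
Share of genes (%) by the number of FR pools with at least 30 reads, in classes of the mean normalized count, with the number of genes under each bar. In the class of 100 to 300 only 7.75% of genes reached 30 reads in all 5 pools, in the class of 300 to 1000 it was 51.5%, and in the class of 3000 or more it was 100%.

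Spread between pools followed the level. The median CV (SD over mean) over all genes was 133% for a mean of 100 to 300, 78.6% for 300 to 1000, 52.1% for 1000 to 3000 and 36.6% from 3000. Counting error alone would give medians of 6.68%, 3.87%, 2.25% and 1.28% in the same classes. The spread between pools was thus many times the counting error at every level, and a CV of 5 values cannot exceed 224%. This error covers only the counting of reads. Loss or uneven sampling of molecules before counting is not in it, and its part in the spread was not tested.

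**Figure D4:**
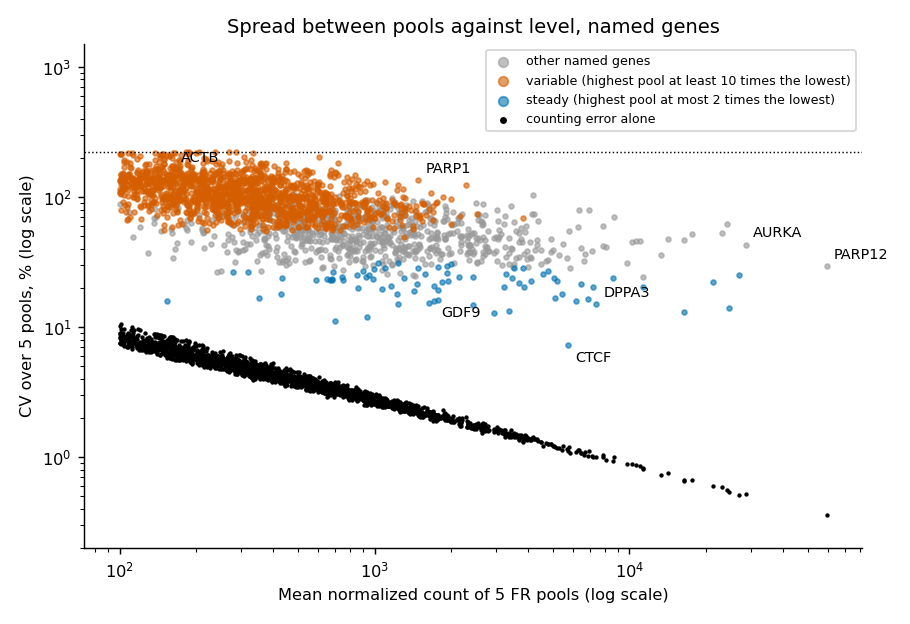
CV over the 5 FR pools (%, log scale) against mean normalized count (log scale) for the named genes with a mean of at least 100. Blue points are the 77 steady genes, orange points the 1443 variable genes, black points the CV that counting error alone would give, and the dotted line the largest CV that 5 values can have. Steady genes reach down to 7.23% (CTCF), yet lie above the black points.

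A gene was steady when its mean was at least 100, each pool had more than 3 reads and its highest pool was at most 2 times the lowest. Of the 2251 named genes at this level 77 were steady (3.42%), beside 105 of all 3419 genes (3.07%). In the deposited scaling the steadiest was CTCF (ENSECAG00000015924), the protein that organizes chromatin loops. It had 6104, 5127, 5697, 6147 and 5629, or 5741 ± 415 (SD, n = 5) and a CV of 7.23%. The order of genes by steadiness under other scalings was not compared. No pool of CTCF stood apart.

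Several of the 20 steadiest named genes act on chromatin. UHRF1, which brings the maintenance methyltransferase to DNA, had 1771, 1373, 1911, 1376 and 1774. RBBP7, a histone-binding subunit of several complexes, had 681, 941, 984, 675 and 1029. SUDS3, a subunit of the SIN3 repressor complex, ranged from 4161 to 6085, and ZMYND11, a reader of methylated histone H3, from 2527 to 3331. Histone H3.3 was present as a pair of identifiers with the same symbol, H3-3B. The first (ENSECAG00000016948) was steady with 654, 786, 623, 778 and 648, and the other (ENSECAG00000033238) was less so with 731, 352, 676, 821 and 557. Such near-identical copies may share reads, so their split is uncertain.

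Others of the 20 act in RNA processing. FIP1L1, which acts in 3′ end formation and polyadenylation, had 3890.0, 3233, 2961, 3798 and 2973. SNRPB2, a protein of the U2 spliceosomal particle, ranged from 4758 to 7266, and WTAP, a subunit of the RNA methyltransferase complex, from 116 to 171. WTAP was the lowest of the 20, with a mean of 154. Of these 20 genes 15 had a mean over 1000, and the remaining steady genes included NIFK, CACYBP, WDR20, DCBLD2, CCDC43, PNPLA8 (a phospholipase) and ZNF706.

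The 20 also held GDF9 and DPPA3. GDF9, the growth factor by which the oocyte acts on its cumulus cells, had 1865, 1883, 1918, 1569.5 and 1287, or 1705 ± 272 (SD, n = 5). DPPA3 (above) had a highest pool 1.44 times the lowest, CAST 1.45 times and HPF1 1.43 times.

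Genes chosen as steady in 4 pools were checked in the pool left out. Its value lay within 2-fold of the mean of the 4 for 56.8% to 78.8% of such genes (median 73.2%), beside 30.6% to 45.2% of all genes with that level. Part of this gap went with the level. Among genes whose 4-pool mean was at least 1000 the share was 66.9% to 88.4% for the steady ones and 58.5% to 75.1% for the others. The count of steady genes moved with single pools: without FR2 it was 215 named genes, and without each other pool in turn 129 to 159. The genes nearest to the limit of 2 were EIF4E1B inside it (1.99955) and PARP12 outside it (2.02).

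A gene was variable when its mean was at least 100 and its highest pool was at least 10 times the lowest, with pools under 3 reads raised to that floor. This held for 1443 of the 2251 named genes (64.1%) and for 85.5% of the 1168 unnamed genes of that level. The share was thus smaller for named genes, and their level was also higher, with a median of 420.0 beside 171 for the unnamed ones. Every named gene also had reads in each pool by the way names were obtained, so this was not a like comparison. The values nearest to this limit were 9.96 (PTPN12) and 10.0135 (ATXN2L). Of the variable named genes 234 reached 30 reads in all pools, 526 in 4, 461 in 3, 203 in 2 and 19 in 1.

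The 20 most variable named genes ran from near 0 to the level of abundant mRNA within the same group. SSR3 (ENSECAG00000023239), a subunit of the translocon-associated complex of the endoplasmic reticulum, had 31.3, 1148, 3.36, 1.01 and 2155. PARP1, the main nuclear poly(ADP-ribose) polymerase, had 11.9, 4646, 525, 6.05 and 2209, with 11 reads in FR1 and 4062 in FR2. ATM, the kinase that signals DNA double-strand breaks, had 3.23, 1382, 1.12, 778 and 2.15. High and low pools differed from gene to gene: ATM was high in FR2 and FR4, and SSR3 in FR2 and FR5.

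Further variable genes acted in chromatin, at the centrosome and in membranes. BPTF and CHD8, both chromatin remodelling factors, were highest in FR2, BPTF with 8.63, 1762, 1.68, 7.06 and 646 and CHD8 with 358, 2030.3, 1.12, 359.7 and 9.31. CEP83 and CEP350, both centrosomal proteins, had their lowest values in different pools, CEP83 in FR4 (1.01) and CEP350 in FR3 (2.80). VDAC1, the main channel of the outer mitochondrial membrane, had 1479, 20.6, 209.9, 2.02 and 60.8. SPIRE1, an actin nucleator with a role in oocyte division, had 299, 104, 1.12, 1.51 and 1339. FR2 was the highest pool in 12 of the 20 genes and the lowest in 0, FR1 was the highest in 5, and FR3, FR4 and FR5 were the lowest in 8, 6 and 6. Over all 1443 variable named genes the highest pool was FR2 in 393, FR1 in 339, FR5 in 296, FR3 in 238 and FR4 in 177. When each pool was set to the same total, the counts were 12 of the 20 genes for FR2 again, and over all variable genes 323, 285, 316, 283 and 236, so that the pools were closer to each other. The other genes of the 20 were COL4A6, RGS22, TMTC3, SHTN1, MOSPD1, HSD17B12, STAU2, EFCAB14, SPECC1, TSC22D2 and ZNF292, and none of the 20 reached 30 reads in all pools.

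Gene lists by function were then described. Since steadiness went with the level, each list's counts stand beside the share of all genes in the same level classes (100 to 300, 300 to 1000, 1000 to 3000, 3000 or more), weighted by the list's members in each, a comparison chosen after seeing the data. In the 12 functional lists 234 identifiers had a name and 211 of them had a mean of at least 100. Of these 14 were steady (6.64%, beside 4.66% of all genes) and 113 variable (53.6%, beside 59.7%). List members are named and so had reads in every pool, whereas all genes include those at 0 in a pool. With a mean of at least 100, 71.4% of all genes were variable but 64.1% of the named ones. A steady gene needs more than 3 reads in each pool, and 3.42% of the named genes were steady beside 3.07% of all genes. The comparison thus leans towards fewer variable and more steady members, here and in each list below.

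Among genes for the egg coat and secreted factors, 8 of 9 were found, 6 of them at the level of at least 100, with 1 steady (4.28% of all genes) and 3 variable (50.0%, beside 54.5%). Besides GDF9, its partner growth factor BMP15 had 280.3, 149, 349, 268 and 879. The egg coat gene ZP4 had 377, 663, 1021, 1126 and 1847, whereas ZP1 had 12.9, 729, 679.6, 913 and 933 and ZP2 had 161, 9.15, 574, 977 and 640.0. ZP1 was lowest in FR1 and ZP2 in FR2. The oocyte-secreted protein gene OOSP2 was low in FR2 and FR5, with 224, 1.14, 273, 369 and 2.15. IZUMO1R and ASTL had means under 100.

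Of maternal effect genes, needed by the early embryo, 12 of 22 were found and 10 had a mean of at least 100. Of these, 2 were steady (DPPA3 and UHRF1, beside 9.90% of all genes) and 1 was variable (10.0%, beside 33.8%). Their median CV of 49.1% was close to the 49.2% of all genes with a mean at or above the median of the list. The maintenance methyltransferase gene DNMT1 had 6272, 5648, 1971, 2473 and 1321, with FR1 and FR2 above the others. TET3, which oxidizes methylated cytosine, had 1216, 984, 1533, 755 and 1113, and the oocyte linker histone H1-8 had 1348, 1423, 661, 1138 and 819.7. NLRP13 ranged from 444 to 1199. The variable member was FOXR1, with 439.9, 2.29, 4.48, 773 and 584.

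Regulators of stored mRNA were found for 13 of 21 symbols, of which 10 had the level, 1 was steady (10.0%, beside 4.66% of all genes) and 6 were variable (60.0%, beside 65.6%). EIF4E1B, the oocyte form of the cap-binding protein, had 1590.3, 1513, 1425, 837 and 795, and ZAR1, which binds stored mRNA, had 151, 165, 115, 124 and 252. CPEB1, the factor that controls cytoplasmic polyadenylation, had 732, 92.7, 1107, 649.8 and 313. EIF4ENIF1, a translational repressor, had 18.3 in both FR1 and FR2 but 1199, 1638 and 1762 in FR3, FR4 and FR5. CNOT6L, a deadenylase of the complex that BTG4 recruits, had a mean of 30.4 in 3′ end counts, beside 6649 for BTG4.

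Of 39 genes of metaphase II arrest and M phase 23 were found, with 0 steady (4.44% of all genes) and 9 variable (42.9%, beside 60.8%) among 21 at the level. CCNB1, the cyclin of maturation-promoting factor, had 1953, 2592, 4394, 2591 and 2020.2. CDC20, the activator of the anaphase-promoting complex, had 154, 124, 998, 395 and 292. FBXO5 (EMI1), an inhibitor of the same complex, had 841, 2184, 989.8, 436 and 6.44, and the M phase kinase PLK1 had 8.63, 8.01, 247, 436 and 780.3. WEE2, the oocyte kinase that inhibits CDK1, had 383, 149, 229.5, 431 and 23.6. FBXO5 was thus lowest in FR5, the pool in which PLK1 was highest.

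Spindle and kinetochore genes were found for 31 of 32 symbols, 28 at the level, with 0 steady (7.60% of all genes) and 10 variable (35.7%, beside 41.7% of all genes). PRC1, the bundler of midzone microtubules, had 5382, 3198, 7593, 6490.5 and 6508. The augmin subunit HAUS6 had 696, 1076, 1350.3, 1626 and 2.86, and the kinetochore protein NUF2 had 2126, 1697, 1626, 83.2 and 9.31. KIF2C, a microtubule-depolymerizing kinesin, was highest in FR5, with 96.0, 673, 68.3, 563 and 2579. FR5 therefore held the least HAUS6 and NUF2 and the most KIF2C.

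All 32 symbols of cytosolic ribosomal proteins were found, with a median level of 387. Among 31 at the level 1 was steady (3.23%, beside 2.47% of all genes) and 24 were variable (77.4%, beside 70.3%). RPS9 was the steady one, with 1994, 1509.9, 2652, 1873 and 2738. RACK1 had 2184, 8.01, 415, 1530.2 and 2468, and FAU had 197, 1.14, 399, 422 and 1165. Both were lowest in FR2, as were 15 of the 32 members. FR2 was also the lowest pool for 375 of the 1443 variable named genes, more than any other pool. In FR2 43.8% of the members had fewer than 30 reads, beside 30.1% of all named genes. These genes have many processed copies in the genome, with which reads may be shared, so single values are uncertain.

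Oxidative phosphorylation genes of the nuclear genome had the highest median ratio of highest to lowest pool among the lists (102), and one of the lowest levels. Of 29 symbols 24 were found, with a median level of 178, and 18 of 20 at the level were variable (90.0%, beside 87.1% of all genes) and 0 steady (0.814% of all genes). These shares were close to each other. COX6A1 had 1275, 20.6, 726, 536 and 1085, and NDUFB1 was the evenest, with 514, 145, 387, 351 and 412. COX5A was found in FR5 nearly alone, with 3.23, 1.14, 3.92, 2.52 and 1331, and NDUFV2 in FR1 and FR5, with 681, 1.14, 0.560, 1.01 and 475. The summed normalized counts of the 24 genes were 7508, 1503, 4255, 3315 and 8355. FR2 had the lowest sum, and 16 of the 24 genes had fewer than 30 reads in it. This was 66.7%, beside 30.1% of all named genes. The median level of all named genes was higher (353), so these shares are not matched for level. The highest sum was 5.56 times the lowest with FR2 and 2.52 times without it. Such a ratio falls by construction when the lowest pool is left out, and no other pool was left out of the sums. FR2 also had the lowest sum with equal totals (6.80 times) and with TMM factors from edgeR (6.11 times). FR2 was also the pool with the fewest reads, whose part in this result was not tested.

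Antioxidant enzyme genes also had their lowest sum in FR2. All 12 genes found of 14 had the level, and 0 were steady (2.98% of all genes) and 7 variable (58.3%, beside 68.4%). GSTM3, a glutathione transferase, had 1286, 1271, 2378, 2703 and 4393, and the cytosolic superoxide dismutase SOD1 had 1072, 313, 2957, 2741 and 1426. The mitochondrial SOD2 had 11.9, 1.14, 1157, 368 and 5.01, high in FR3 and FR4 and near 0 in the others. The sum of the list was 3148 in FR2 and 5695 to 11924.5 in the other pools. Without FR2 the highest sum was 2.09 times the lowest rather than 3.79 times, a fall that is again by construction. Under each scaling FR2 also had the lowest sum of the ribosomal, proteasome and stored mRNA lists. It had the highest sum of the M phase, spindle and chromatin lists.

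Chaperones were variable about as often as all genes in the same level classes. All 24 were found, with 2 steady (8.70%, beside 4.95% of all genes) and 12 variable (52.2%, beside 53.8%) among 23 at the level. HSP90AA1 was the highest, with 4811, 6046, 2598, 3929 and 2450.4. The steady members were P4HB, a disulfide isomerase, with 1723, 1528, 2321, 1487 and 1491, and HSPA8, the constitutive HSP70, with 475, 511, 662, 819 and 774. CANX (calnexin), by contrast, had 1408, 1.14, 119, 3.03 and 2.86. The sums of the list lay between 19820.0 and 24386, a 1.23-fold range. A sum weighs the highest members most, and sums of other genes of like level were not computed.

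Proteasome and ubiquitin genes differed widely in level in 3′ end counts, from 1.92 for SKP1, with 2 or 3 reads per pool, to 26999 for PSMA7. Of 25 symbols 24 were found, and 3 were steady (15.8%, beside 4.88% of all genes) and 11 variable (57.9%, beside 57.2%) among 19 at the level. PSMD1, a subunit of the regulatory cap, was steady with 2085, 2235, 2775, 3301 and 1809. Its mean was 2441 in 3′ end counts, beside 26999 for PSMA7, a subunit of the same particle.

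All 31 symbols of the chromatin list were found with 32 identifiers, of which 31 had the level. Among these 5 were steady (16.1%, beside 7.40% of all genes) and 8 variable (25.8%, beside 45.6%). Their median CV of 51.3% was close to the 53.0% of all genes with a mean at or above the median of the list. A member that did vary was the deacetylase HDAC1, with 374, 5.72, 657, 7.57 and 6.44.

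**Figure D5:**
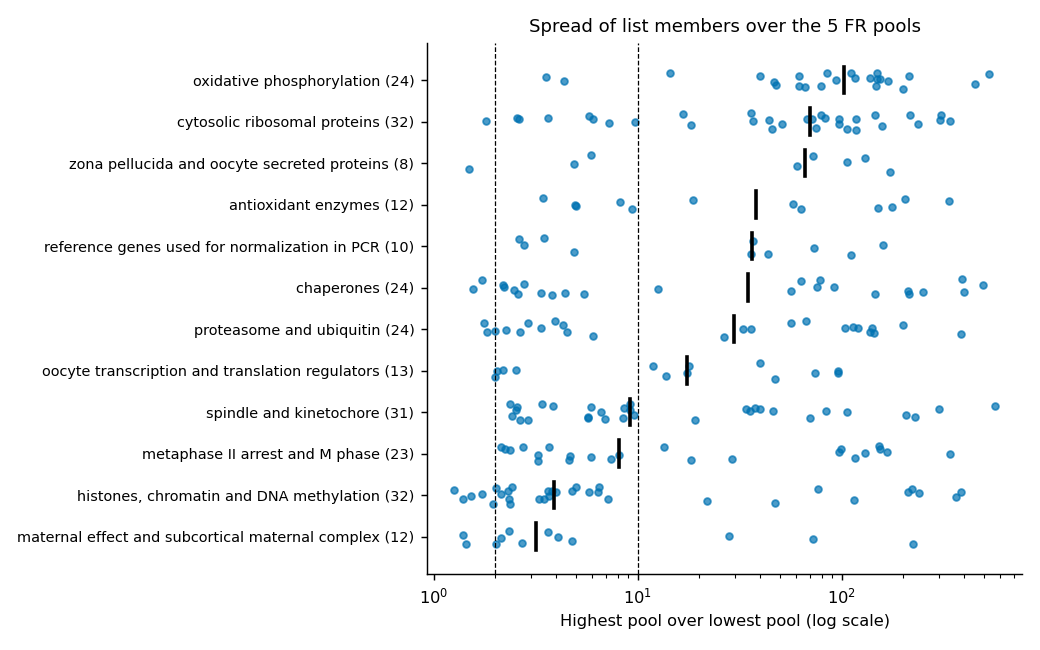
Highest pool over lowest pool (log scale, pools under 3 reads raised to that floor) for each member of 12 functional lists, with the number of identifiers in brackets, a black bar for the median and dashed lines at 2 and 10. Medians run from 3.17 for maternal effect genes and 3.89 for chromatin genes to 69.8 for ribosomal proteins and 102 for oxidative phosphorylation, and the lists differ in level.

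Of genes often used as references in PCR, 10 of 17 were found, and 0 were steady (2.89% of all genes) and 6 variable (60.0%, beside 67.5%). ACTB (beta-actin) had 16.2, 111, 38.1, 14.6 and 637, YWHAZ had 251, 2.29, 186, 4.54 and 178, and TBP had 7.55, 686, 392, 63.1 and 4.30. The evenest were RPL4, with 2704, 1768, 1033, 1140.2 and 1897, and HPRT1, with 1515, 1035, 604, 548 and 1077. The highest pool was 2.62 times the lowest for RPL4 and 2.76 times for HPRT1, against 43.5 times for ACTB. Both fall outside the limit for steady genes. CTCF, FIP1L1 and ZNF706 met it, but they were picked for their low spread in these same pools. Whether they would be steadier than the reference genes in other pools was not tested.

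The label was set beside oocyte genes, although every named gene has reads in each pool by the way names were obtained. GDF9, BMP15, ZP4 and DPPA3 had at least 130 reads in each pool. ZP1 had 12 reads in FR1, ZP2 had 8 in FR2, OOSP2 had 1 in FR2 and 3 in FR5, and ASTL and IZUMO1R had under 10 reads in 2 pools each. Of the 22 maternal effect genes 10 had no name, and 9 of the 12 found had at least 30 reads in every pool. The others were TLE6 (3 and 2 reads in FR1 and FR2), NLRP4 (4 and 5 there) and FOXR1 (2 and 8 in FR2 and FR3). Of 25 markers of cumulus and granulosa cells only HAS2 (hyaluronan synthase) had a name, and it had 842, 1239, 895, 520.1 and 462. Of 12 markers of blood and immune cells, MS4A1 had 593, 1616, 54.3, 323 and 1972 and PECAM1 had 493, 8.01, 892, 300.2 and 539. None of 10 fibroblast markers had a name, and the other markers of these cells were not analysed here. Whether cells other than oocytes contributed to these values was not tested.

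Across all 11425 genes, Pearson's r of log2(normalized count + 1) lay between 0.618 and 0.650 over the 10 pairs, and Spearman's rho between 0.624 and 0.669. For the 551 genes with a mean of at least 1000, r was 0.328 to 0.384 in the 4 pairs with FR2 and 0.459 to 0.599 in the 6 other pairs, so that FR2 was less like each other pool among abundant genes. Genes of 1 library share its depth and are no independent replicates. Each pair shared 64 to 72 of its 100 highest genes. FR1 and FR2 were the 2 highest pools for 160 of these 551 genes, and every other pair for 20 to 60. When each pool was set to the same total instead, the same count was 94 for FR1 and FR2 and 42 to 59 for the other pairs, so that part of the difference went with the scaling. XPO1, WAPL, DEK and DNMT1 were genes of this kind.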

How the data were processed

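RNA of pooled horse oocytes was read with a 3′ transcriptome kit that carries unique molecular identifiers. Per the labels and the study's methods, the authors trimmed reads with Trim Galore, mapped them to EquCab3.0 with STAR, processed identifiers with UMI-tools, counted genes with RSEM and divided counts by DESeq2 size factors. The deposited values are thus a signal per gene and sample (normalized counts). In each FR column all values were whole multiples of the smallest one (100% within 0.001 reads), which gave whole reads. These recovered reads summed to 2740837 to 4715119 per pool over the genes of the table. They are counts left after the authors' processing and not the sequencing depth, for which the paper reports a higher average per sample.

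Only the 5 FR columns were used. Names came from identifier and name columns of the study's supplementary tables, read in shortened form, and gene positions were not analysed here. The authors' comparison columns (fold changes, p-values) were not used.

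Mean, SD, CV and the ratio of highest to lowest pool were computed per gene, with no test. The genes named were the 30 named genes with the highest mean, the 20 steadiest, the 20 most variable, and list members that were highest, near 0, steadiest or most variable. The unnamed gene ENSECAG00000008731 and the genes nearest to a limit were named after their values were seen. Members and lists were chosen with earlier results of these data known. The rules for the calls were run on simulated counts with counting error only. All 1529 unchanged genes were called steady, and all 200 genes lowered 20-fold in 1 pool were called variable. Real spread between pools was many times the counting error, so this checks the working of the rules and not the calls made here. Alternatives were equal totals, TMM factors of edgeR 4.0.16 (R 4.3.3), other pseudocounts, levels and ratios, and leaving out each pool. Python 3.11.15, numpy 2.4.6, pandas 2.3.3, scipy 1.17.1 and matplotlib 3.10.9 were used.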

Additional observations from a re-analysis of the deposited data

Results flagged for a closer look

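A pool was set apart when its gap to the nearest other pool was over 0.71 of the range of all 5 (Dixon's 95% value). This held for 21 of 134 genes, sums and depth measures examined. Chance sets apart about 1 in 20 groups, a rate that does not apply here, since many of the genes were chosen for their spread: 8 of the 21 were among the 20 most variable genes. FR2 was the pool apart in 9 of the 21, FR1 in 5, FR5 in 5, FR3 in 2 and FR4 in 0.

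FR2 was high for GLUL (44660.5, against 15799.7 to 19401 in the others), EIF5B (33308), DPPA3 (9314, against 6463 to 7163), COL4A6 (2602), CHD8 (2030.3), TMTC3 (1882), SPECC1 (2687) and TSC22D2 (1561), and low for HPF1 (12652, against 16541 to 18079.5). FR1 was high for PARP12 (89513, against 44386 to 56844), VDAC1 (1479), ZNF292 (1218) and CANX (1408, against 1.14 to 119), and low for ZP1 (12.9, against 679.6 to 933). FR5 was high for COX5A (1331, against 1.14 to 3.92), SPIRE1 (1339), ACTB (637), KIF2C (2579) and BMP15 (879, against 149 to 349). FR3 was high for P4HB (2321) and CCNB1 (4394, against 1953 to 2592). DPPA3, HPF1 and P4HB are steady genes, so that a pool apart there spans less than 2-fold. Pools apart were sought in the deposited scaling alone, and whether they stay apart under other scalings was not tested. In the deposited scaling FR1 and FR2 had the largest totals, 3055439 and 3135111, against 2378807 to 2561215 in the others.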

How the results depend on the processing

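Of the 30 highest named genes 30 were among the 30 highest with equal totals and with TMM factors, 27 when ranked by the median, 29 by mean log2 values with each pseudocount, 23 among all genes of the table, and 27 to 29 without 1 pool. The 77 steady named genes were 17 with a ratio of at most 1.5 and 296 with at most 3, and 129 to 215 without 1 pool. The 1443 variable named genes were 703 at a level of at least 300, 2442 in all genes of the table, and 1203 to 1329 without 1 pool. The 14 steady list members were 18 to 35 without 1 pool, most without FR2. A ratio over 4 pools is never larger than over 5, so these counts rise by construction. Mean r between pools was 0.636, 0.366 for genes with a mean of at least 100, and 0.632 to 0.642 without 1 pool. The 1047 named genes with 30 reads in every pool, a threshold chosen after seeing the data, were 1281 at 10 reads, 858 at 100 reads and 1093 to 1233 without 1 pool. The other alternatives stayed within 1.5 times the count or the SD between pairs. Names from a reference gene table were not run, since no identifier matched. Depth limits genes under about 30 reads, and names cover 22.5% of genes. No paired analysis was possible because a single group was described.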

Other observations

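The highest genes without a name were ENSECAG00000008731, with 58862, 32061, 67912, 67063 and 77587 in FR1 to FR5, and ENSECAG00000009520, with a mean of 15997. For the first of these FR2 was the lowest pool.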
